A study of Arabidopsis thaliana with 8 samples.

Results

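The genes described here are 32 loci of phenylpropanoid, lignin and flavonoid biosynthesis in Arabidopsis thaliana. They were chosen by locus from textbook pathway membership, with earlier results of these data known. They comprise 8 loci of the general phenylpropanoid pathway, 9 of monolignol and sinapate synthesis, 10 flavonoid enzymes and 5 regulators. Of these, 24 had a row in the deposited count table, which lists 17710 loci, and 8 had none. The study sequenced RNA of whole shoots from seedlings aged 7 days in 8 libraries, with plants grown upright on MS agar (Murashige and Skoog medium) with 16 h of light and 8 h of dark. These are 2 libraries of each of 4 genotypes, namely cae2-1, CA1-1, cae2-1 CA1-1 and Col, the last being the Columbia accession with no mutation named in the labels. Only the 2 columns whose names match sample titles, those of Col replicates 1 and 2 (called libraries 1 and 2 below), were used, and that they are Col rests on those names. The comparisons between genotypes were therefore not analysed here, and all values below are levels in Col shoots and differences between 2 libraries of one genotype.

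The general phenylpropanoid pathway turns phenylalanine into activated p-coumaric acid, which feeds every later branch. One branch makes the monolignols, the building blocks of lignin in xylem walls, and the sinapate esters that screen leaves from ultraviolet light. The other begins at chalcone synthase and leads to flavonols, anthocyanins and proanthocyanidins. The R2R3-MYB factors MYB11, MYB12 and MYB111 are known to activate the early flavonol genes, and PAP1 and TT8 the late anthocyanin genes.

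Summed over the listed models, library 1 held 2571129 counts and library 2 held 2408685. Levels are CPM, counts per 1000000 of library size after TMM scaling (a trimmed mean that aligns the bulk of genes between libraries), and levels of different genes are compared as CPM per kilobase of spliced length. Neither library lists any model at a count of 1, so a listed 0 can hide a single count, and its upper limit is 1.90 CPM in library 1 and 1.91 CPM in library 2. Rows covered 61.1% of the 27444 protein-coding nuclear loci annotated in TAIR10.1. A missing row gives no level and does not show low expression. The loci without a row have these numbers of annotated models: PAL3 2, 4CL3 2, CCR1 7, CAD5 2, SNG1 6, F3H 2, LDOX 3 and BAN 1. Of the 24 listed, 4CL1, 4CL2, CCoAOMT1 and FLS1 have several models and the others 1. RBCS1A, a marker of green tissue, has 2 models and no row either. Why rows are missing was not tested. Markers of green tissue were abundant, and the 4 listed of 5 lay between 4899 and 18118 CPM over both libraries, with sums of 51551 CPM in library 1 and 25502 CPM in library 2. Of 5 root markers, RHD6, EXPA7 and COBL9 were listed at 0 in both libraries, and the list summed to 29.7 CPM in library 1 and 11.3 CPM in library 2. Of 4 seed markers only SESA1 was listed, with 1.61 and 2.01 CPM in libraries 1 and 2. Of 6 xylem markers 5 were listed, and they summed to 95.9 CPM in library 1 and 206.8 CPM in library 2. Of that xylem sum, the protease gene XCP2 held 72.2 CPM in library 1 and 190.3 CPM in library 2.

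Of the 4 lists, that of the monolignol and sinapate enzymes had the highest summed transcript level in Col shoots. Per kilobase, their 6 listed genes summed to 402 CPM in library 1 and 262 CPM in library 2. Of these sums, HCT held 128 and 90.8 and COMT1 held 194 and 68.3, in libraries 1 and 2. The 6 listed general phenylpropanoid genes summed to 66.6 and 95.8 CPM per kilobase, and the 7 listed flavonoid enzymes to 72.9 and 128.9, in libraries 1 and 2. The 5 regulators, all of them listed, summed to 0 and 1.08 CPM per kilobase. Loci without a row add nothing to these sums, and 4CL1 enters them at 0 although only its isoform 2 had a row. Without the correction for length the general phenylpropanoid sum lay above the flavonoid sum (means of 216 and 137 CPM), so the order of these lists depends on it. Of the 24 listed genes, 14 (58.3%) had a mean of 5 CPM or more, against 59.7% of all 17921 models. The 14 comprised 6 of 6 listed monolignol and sinapate genes, 4 of 6 listed general phenylpropanoid genes, 4 of 7 listed flavonoid enzymes and 0 of 5 regulators.

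**Figure D1:**
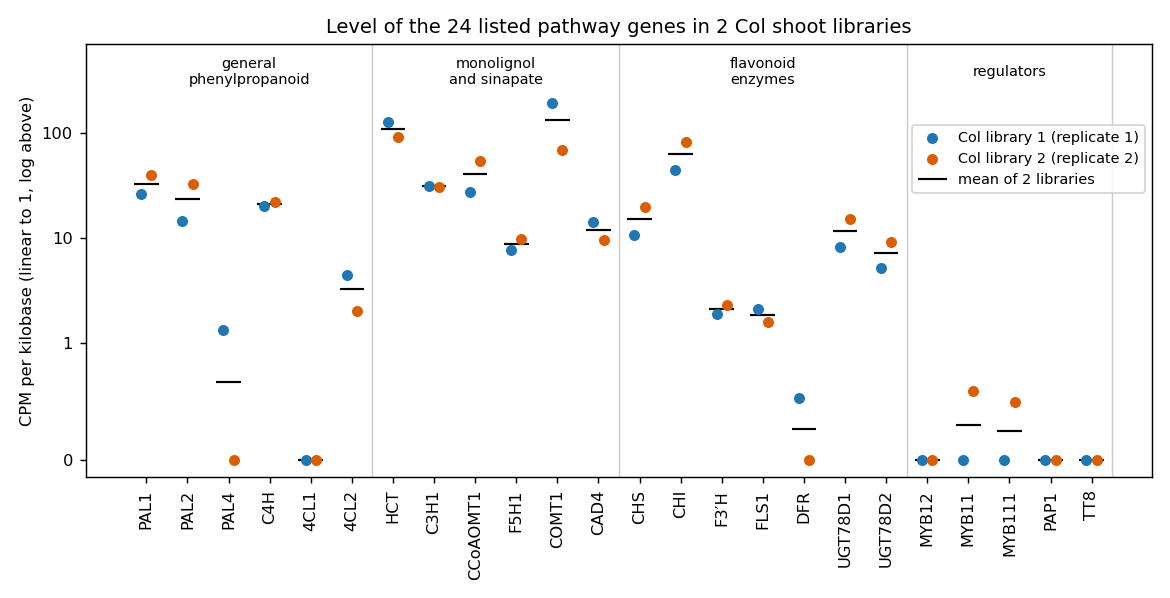
Level of each of the 24 listed pathway genes as CPM per kilobase of spliced length, on an axis that is linear to 1 and logarithmic above, with 1 point per Col library and a bar at the mean of both. COMT1 and HCT were highest, with means of 131 and 109 CPM per kilobase. MYB12, PAP1, TT8 and 4CL1 were listed at 0 in both libraries, 4CL1 by its isoform 2 only.

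The entry of the pathway was carried by PAL1 and PAL2 among the listed genes of phenylalanine ammonia-lyase, the enzyme that commits phenylalanine to the pathway. PAL1 (AT2G37040) had 191 counts in library 1 and 286 in library 2, or 76.7 and 115.1 CPM. PAL2 (AT3G53260) had 105 and 233 counts, or 42.1 and 93.7 CPM, in libraries 1 and 2. PAL1 was thus the higher copy in each library, by 1.79 times per kilobase in library 1 and 1.21 times in library 2. PAL4 (AT3G10340) had 9 counts in library 1 and was listed at 0 in library 2, and PAL3 had no row. The coding sequences of PAL1 and PAL2 are 82.6% identical, and their transcripts share an exact run of 80 bases, so how the authors' counting divided reads between them is uncertain. PAL4 is 70.9% identical to PAL1 and shares no run with it longer than 20 bases.

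Next in the pathway, C4H (AT2G30490), the cytochrome P450 that hydroxylates cinnamic acid, had 104 counts in library 1 and 114 in library 2, or 43.8 ± 2.92 CPM (SD, n = 2). Among the genes of 4-coumarate:CoA ligase, which activates p-coumaric acid, 4CL2 (AT3G21240) had 22 counts in library 1 and 10 in library 2, or 8.83 and 4.02 CPM. Per kilobase, C4H stood 4.51 times above 4CL2 in library 1 and 10.9 times above it in library 2. The 4CL2 row used is isoform 1, of 3 models in the reference annotation. 4CL1 (AT1G51680) was listed at 0 in both libraries, but the table lists only its isoform 2, of 3 models in the reference annotation. Such a row says little about the gene as a whole, since of the 855 rows with an isoform number other than 1, 34.3% were at 0 in both libraries, against 18.4% of the rows for isoform 1. 4CL3 had no row. 4CL5 (AT3G21230), a further gene of this enzyme from the wider pathway, had 17 and 27 counts, or 6.82 and 10.9 CPM, in libraries 1 and 2. 4CL5 overlaps MKK5 on the opposite strand by 459 bases. No statement on the total level of 4-coumarate:CoA ligase transcripts can be made from these rows.

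Promoters of the general phenylpropanoid and monolignol genes often carry AC elements, short motifs known to be bound by R2R3-MYB factors. The letters ACCTACC and ACCAACC were searched on both strands from 250 bases before to 50 bases after the annotated gene start in assembly TAIR10.1. At least 1 of these 2 motifs was present in 11 of the 32 windows (34.4%), against 4.58% of the 27443 windows of protein-coding nuclear genes. By list, it was present in 4 of 8 general phenylpropanoid windows, 5 of 9 monolignol and sinapate windows, 1 of 10 flavonoid enzyme windows and 1 of 5 regulator windows. In PAL1 and PAL2 the only match lies after the annotated start, from bases 39 and 4. The 250 bases before the start of 4CL2 (chr3:7457405-7457654, minus strand, TAIR10.1) are shown because they hold ACCAACC at 2 places, first bases 140 and 31 bases before the start, in capitals.
4CL2: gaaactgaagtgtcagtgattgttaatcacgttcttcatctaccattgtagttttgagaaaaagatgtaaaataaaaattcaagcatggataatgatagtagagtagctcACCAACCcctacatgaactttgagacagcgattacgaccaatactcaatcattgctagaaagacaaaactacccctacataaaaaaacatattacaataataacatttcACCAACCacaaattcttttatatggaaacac
A match describes the letters in the window and is not evidence of a bound site.

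Among the monolignol genes, HCT and COMT1 led. HCT (AT5G48930), the transferase that makes and later splits the shikimate ester intermediate, had 574 counts in library 1 and 406 in library 2, or 230.4 and 163 CPM. COMT1 (AT5G54160), a methyltransferase of syringyl lignin and sinapate that also methylates flavonols, had 724 and 254 counts, or 290.6 and 102 CPM, in libraries 1 and 2. Their order per kilobase changed between the libraries, with COMT1 above HCT in library 1 (194 and 128 CPM per kilobase) and below it in library 2 (68.3 and 90.8). On the mean per kilobase, HCT ranked at percentile 93.2 and COMT1 at percentile 94.5 of the models with a length.

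The upstream windows of HCT and CCoAOMT1 are shown because each holds 1 of the 2 AC motifs, and COMT1 holds neither in its window. HCT (chr5:19838236-19838485, minus strand, TAIR10.1) has ACCAACC, first base 90 bases before the start, in capitals. HCT also has ACCTACC on the opposite strand from base 12 after the annotated start, outside the stretch shown. CCoAOMT1 (chr4:16310159-16310408, plus strand, TAIR10.1) has ACCTACC, first base 213 bases before the start, in capitals.
HCT: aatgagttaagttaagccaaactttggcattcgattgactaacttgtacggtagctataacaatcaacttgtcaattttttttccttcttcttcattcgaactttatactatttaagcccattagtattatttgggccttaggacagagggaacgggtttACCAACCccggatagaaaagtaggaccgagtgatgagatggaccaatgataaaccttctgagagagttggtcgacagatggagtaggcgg
CCoAOMT1: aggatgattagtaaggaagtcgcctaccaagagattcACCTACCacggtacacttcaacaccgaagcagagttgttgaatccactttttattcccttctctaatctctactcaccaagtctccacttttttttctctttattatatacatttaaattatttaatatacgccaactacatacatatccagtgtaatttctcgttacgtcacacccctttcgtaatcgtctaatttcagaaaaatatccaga
Both stretches are the 250 bases before the annotated start, read on the strand of the gene.

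C3H1 and CCoAOMT1 were lower than HCT and COMT1 per kilobase in each library. The esterase gene CSE of the wider pathway, given below, stood near HCT. C3H1 (AT2G40890), the P450 that hydroxylates the shikimate ester made by HCT, had 147 counts in library 1 and 143 in library 2, or 58.3 ± 1.03 CPM (SD, n = 2). It overlaps CYSA by 70 bases and a noncoding RNA by 529 bases, each on the opposite strand, and whether the counting used strand is not given in the sources used here. HCT stood 4.09 times above C3H1 per kilobase in library 1 and 2.97 times above it in library 2. CCoAOMT1 (AT4G34050), which methylates caffeoyl-CoA on the way to guaiacyl units, had 78 counts in library 1 and 153 in library 2, or 31.3 and 61.6 CPM. COMT1 was therefore 7.15 times CCoAOMT1 per kilobase in library 1 and 1.28 times in library 2. The CCoAOMT1 row used is isoform 1, of 3 models in the reference annotation, so these ratios may not hold for the gene as a whole.

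F5H1 (AT4G36220), the hydroxylase that opens the branch to syringyl lignin and sinapate, had 38 counts in library 1 and 48 in library 2, or 17.3 ± 2.87 CPM (SD, n = 2). CAD4 (AT3G19450), a cinnamyl alcohol dehydrogenase of the last monolignol step, had 64 and 43 counts, or 25.7 and 17.3 CPM, in libraries 1 and 2. Its partner CAD5 had no row, nor had the reductase gene CCR1 or SNG1, the enzyme that makes sinapoylmalate. The levels of these 3 steps are therefore not described here.

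Of the listed flavonoid enzymes, CHI and CHS at the branch head and UGT78D1 and UGT78D2 of glycosylation reached a mean of 5 CPM. F3′H and FLS1 had few counts, and F3H had no row, so the levels between these steps are only partly known. CHI (AT3G55120), chalcone isomerase, had 123 counts in library 1 and 224 in library 2, or 49.4 and 90.1 CPM. CHS (AT5G13930), chalcone synthase, the first enzyme of the branch, had 45 and 83 counts, or 18.1 and 33.4 CPM, in libraries 1 and 2. CHI thus stood above CHS by 4.19 times per kilobase in library 1 and 4.13 times in library 2. UGT78D1 (AT1G30530), the flavonol rhamnosyltransferase, had 39 counts in library 1 and 72 in library 2, or 15.7 and 29.0 CPM. UGT78D2 (AT5G17050), the flavonoid glucosyltransferase, had 21 and 37 counts, or 8.43 and 14.9 CPM, in libraries 1 and 2. Their coding sequences are 79.8% identical and share no exact run longer than 28 bases.

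The other listed flavonoid enzymes were near the limit of the counts. F3′H (AT5G07990), which adds the second hydroxyl of quercetin, had 9 and 11 counts in libraries 1 and 2, or 4.02 ± 0.575 CPM (SD, n = 2). FLS1 (AT5G08640), flavonol synthase, had 8 and 6 counts, or 2.81 ± 0.563 CPM. The FLS1 row used is isoform 1, of 2 models in the reference annotation. DFR (AT5G42800), the first enzyme committed to anthocyanins, had 2 counts in library 1 and was listed at 0 in library 2. F3H, LDOX and BAN had no row, so their levels are not known here. Relative to CHS per kilobase, F3′H was 5.66 times lower in library 1 and 8.55 times lower in library 2.

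All 5 regulators were listed, and none had more than 2 counts in a library. MYB11 (AT3G62610) and MYB111 (AT5G49330) were each listed at 0 in library 1 and had 2 counts in library 2. MYB12 (AT2G47460), PAP1 (AT1G56650) and TT8 (AT4G09820) were listed at 0 in both libraries. Among all models 19.2% were at 0 in both, so this state is common in the table, and at this depth a listed 0 does not show that a gene is silent.

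The G-box letters CACGTG, a motif known to be bound by bZIP and bHLH factors, were found in 5 of 10 windows of flavonoid enzymes and 0 of 9 of monolignol and sinapate enzymes. Of all 27443 windows 7.68% hold it, and the motif reads the same on both strands. The 5 were CHS, CHI, F3H, DFR and BAN, of which CHS and CHI lay above 5 CPM, DFR had at most 2 counts, and the other 2 had no row. In CHI the only match lies after the annotated start, from base 40. The 250 bases before the start of CHS (chr5:4488226-4488475, plus strand, TAIR10.1) are shown because they hold the motif, first base 233 bases before the start, in capitals.
CHS: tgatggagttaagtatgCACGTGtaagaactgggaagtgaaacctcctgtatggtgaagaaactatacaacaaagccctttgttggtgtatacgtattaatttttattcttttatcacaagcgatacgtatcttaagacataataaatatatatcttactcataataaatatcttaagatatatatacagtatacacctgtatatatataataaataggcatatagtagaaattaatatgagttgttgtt
In none of the 32 windows did a match of an AC motif overlap one of the G-box, and the CHS window holds no AC motif.

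**Figure D2:**
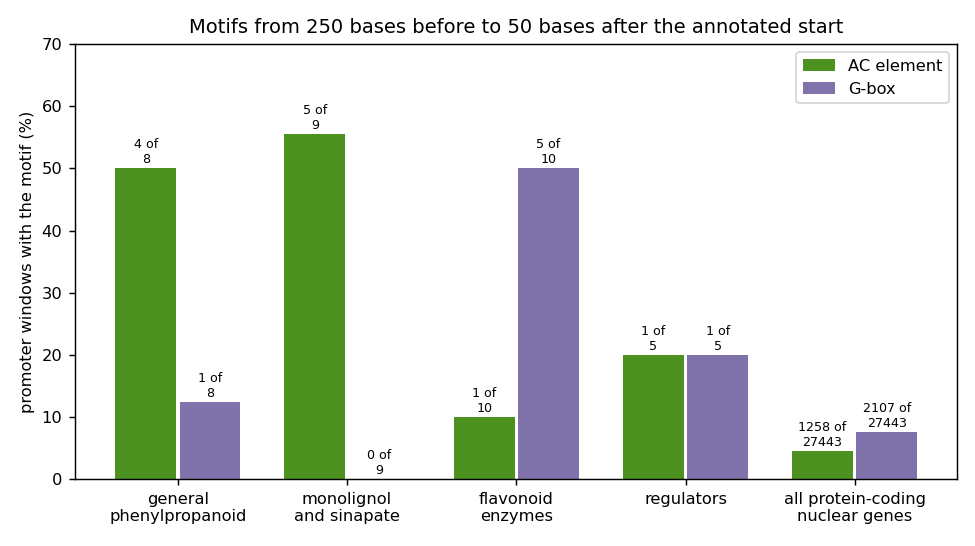
Share of promoter windows (percent, with the number of windows above each bar) that hold an AC element or a G-box, for the 4 lists of pathway genes and for all protein-coding nuclear genes of TAIR10.1. AC elements were present in 5 of 9 monolignol and sinapate windows and 1 of 10 flavonoid enzyme windows, and the G-box in 0 of 9 and 5 of 10.

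The 2 Col libraries differed from each other for most of the abundant pathway genes. An exact binomial test (two-sided, Benjamini-Hochberg over all 10701 models at a mean of 5 CPM or more) asked whether the counts split as the scaled library sizes do. It called 8 of the 14 pathway genes tested, against a background of 54.5% of all models tested, so the share of pathway genes called (57.1%) was near that of all models. Of the 8, 2 were higher in library 1 (background 27.4%) and 6 higher in library 2 (background 27.1%). This test compares 2 libraries with counting noise and not conditions, and the labels do not say whether the replicates came from separate plates or days. In whole shoots, more or fewer cells of a type and more or less RNA per cell cannot be told apart.

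COMT1 and HCT were the genes higher in library 1. COMT1 differed by 2.84 times (95% exact interval 2.46 to 3.29, adjusted p = 4.9e-51 by the exact binomial test) and HCT by 1.41 times (1.24 to 1.60, adjusted p = 5.3e-07). Higher in library 2 were PAL2 by 2.22 times (1.76 to 2.83, adjusted p = 1.8e-11 by the exact binomial test) and CCoAOMT1 by 1.97 times (1.49 to 2.62, adjusted p = 3.6e-06). PAL1 was higher in library 2 as well, with a 95% exact interval of 1.25 to 1.81 times (adjusted p = 5.1e-05 by the exact binomial test). COMT1 and PAL2 were the 2 genes called at a difference of at least 2-fold, where 25.5% of all models tested were. The monolignol list did not move one way, since HCT and COMT1 were higher in library 1 and CCoAOMT1 in library 2, and C3H1 did not pass the test (adjusted p = 0.93 by the exact binomial test). The xylem marker XCP2 was 2.63 times higher in library 2. The wall cellulose synthase gene CESA8, another xylem marker, had 14.4 CPM in library 1 and 9.25 CPM in library 2. CESA8 did not pass the test (adjusted p = 0.18 by the exact binomial test). The 4 listed markers of green tissue were each higher in library 1, by 1.64 to 2.32 times. The root marker CASP1 was 4.81 times higher there (95% exact interval 2.48 to 10.2). CASP2, with 8.43 CPM in library 1 and 6.84 CPM in library 2, did not pass the test (adjusted p = 0.73 by the exact binomial test). The part of tissue makeup in these differences was not tested.

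The 4 flavonoid enzymes tested had more counts in library 2 by similar ratios, and 3 of them passed the test. Of all models tested 54.5% passed it, 27.1% with the higher level in library 2. CHI was 1.83 times higher there (95% exact interval 1.46 to 2.29, adjusted p = 2.8e-07 by the exact binomial test), CHS 1.85 times (1.27 to 2.72, adjusted p = 0.0024) and UGT78D1 1.85 times (1.24 to 2.81, adjusted p = 0.0051). UGT78D2 had 1.77 times the level there but did not pass the test (1.01 to 3.18, adjusted p = 0.081). The median log2 ratio of these 4 genes, library 1 over library 2, was −0.86, beside −0.46 for the 14 pathway genes and −0.00 for all models tested. Over the 14 genes the SD of the log2 ratio was 0.83, and over all models tested it was 0.91. C4H, F5H1, 4CL2 and CAD4 did not pass the test either (adjusted p of the exact binomial test 0.63, 0.43, 0.087 and 0.092). With only 22 and 10 counts, the interval for 4CL2 ran from 0.997 to 5.19 times higher in library 1, so a large difference was not excluded at this depth. The flavonoid enzymes F3′H, FLS1 and DFR were below the level tested. They had 9 and 11, 8 and 6, and 2 and 0 counts in libraries 1 and 2.

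**Figure D3:**
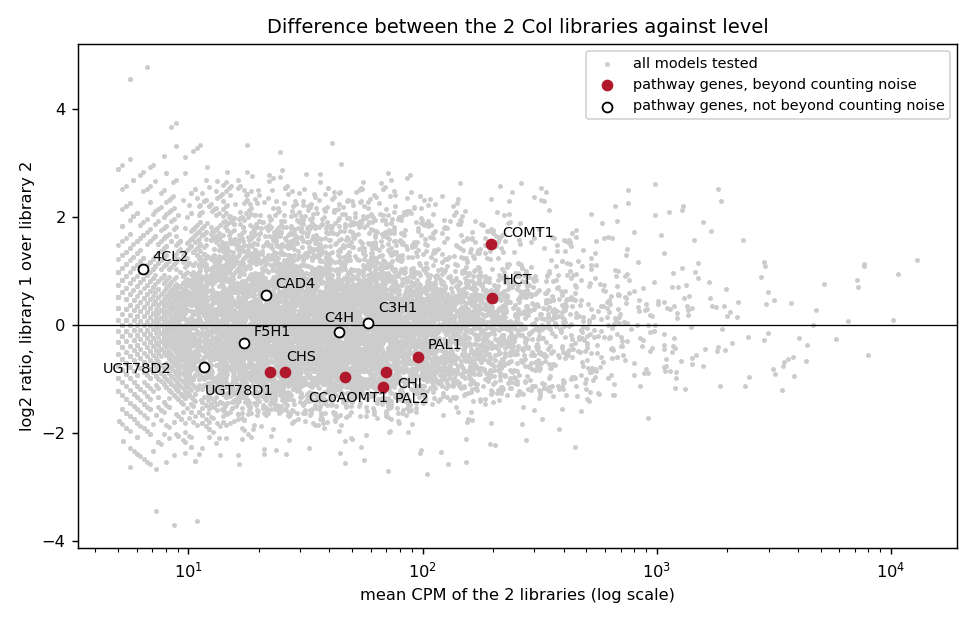
Log2 ratio of library 1 over library 2 (0.5 CPM added to each) against mean CPM on a log axis, for all 10701 models tested (grey) and the 14 pathway genes, filled where the split passed the exact binomial test. PAL2 lies lowest of these genes, at −1.14, and COMT1 highest. The pathway genes lie within the cloud of all models.

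Of 90 further genes of the pathway, 71 had a row and 41 reached a mean of 5 CPM (57.7% of those listed). The shikimate and phenylalanine supply, which makes the substrate of PAL, had 12 of 13 listed genes at 5 CPM or more, while 7 of its 20 genes had no row (SK1, SK2, EPSPS2, CS, PPA-AT, ADT1 and ADT2). On the mean of both libraries it was led by the 3 genes of its first enzyme, DHS1 with 132 and 141 CPM, DHS3 with 171 and 90.9 CPM and DHS2 with 85.9 and 114 CPM, in libraries 1 and 2. In library 2 alone, ADT4, an arogenate dehydratase gene, had 141 CPM and so stood above DHS2 and DHS3. Of its 12 genes tested, 9 were called, 2 higher in library 1 and 7 higher in library 2, beside 54.5% of all models called, 27.4% higher in library 1 and 27.1% higher in library 2. DHQS was listed at 0 in both libraries, and only its isoform 2 had a row.

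Of 23 listed genes among the other phenylpropanoid and lignin enzymes, 12 reached 5 CPM and 6 reached 100 CPM. UGT72E1, a glucosyltransferase of monolignols and their aldehydes, had the highest mean, with 551 CPM in library 1 and 111 CPM in library 2. The difference was 4.96 times (4.35 to 5.66), and in library 2 alone 5 other genes of this list lay above it. CAD7, a relative of the cinnamyl alcohol dehydrogenases, had 261 and 194 CPM, and the wall peroxidase gene PRX71 had 146 and 235 CPM, in libraries 1 and 2. REF1, the aldehyde dehydrogenase that makes ferulic and sinapic acid, had 205 and 173 CPM. CSE, the esterase that releases caffeic acid from the shikimate ester, had 193 and 113 CPM in libraries 1 and 2, and per kilobase it was 1.04 and 0.857 times the level of HCT. UGT84A3, a glucosyltransferase of hydroxycinnamic acids, had 76.3 and 126 CPM. Of the 12 tested, 8 were called, 5 higher in library 1 and 3 in library 2, beside 54.5% of all models called (27.4% and 27.1% by direction). The lignin laccase gene LAC4 had 28.9 CPM in library 1 and 24.5 CPM in library 2 (adjusted p = 0.50 by the exact binomial test).

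Of 10 listed genes among the other flavonoid enzymes and transporters, RHM1 and UGT89C1 reached 5 CPM and 4 were listed at 0 in both libraries. RHM1, which makes the UDP-rhamnose donor, had 14.8 and 28.6 CPM, and UGT89C1, which adds rhamnose to the flavonol 7-position, had 12.0 and 31.0 CPM, in libraries 1 and 2. Each was higher in library 2, by 1.92 times (1.27 to 2.94) and 2.57 times (1.67 to 4.07). The other 8 listed genes had at most 12 counts in a library, and the most abundant of them, AHA10, had 3 and 12 in libraries 1 and 2. Among these 8 were TT19, UGT75C1, UGT79B1 and 3AT1 of anthocyanin transport and decoration. UGT89C1 overlaps a noncoding RNA gene on the opposite strand by 1580 bases, and without a known strand setting the reads of both genes cannot be told apart.

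Among 25 listed regulators of the wider pathway, 15 reached 5 CPM. The Kelch F-box genes, whose proteins mark PAL for breakdown, led by mean CPM, with KFB20 at 101 and 100.2 CPM and KFB50 at 151 and 27.0 CPM in libraries 1 and 2. LBD37, a repressor of anthocyanin genes that responds to nitrate, had 144 and 33.8 CPM. The activators of anthocyanin synthesis PAP2, MYB113 and GL3 had at most 6 counts in a library, and the regulators MYB114, EGL3 and TT2 had no row. The repressor gene MYBL2 had 73.4 CPM in library 1 and 62.0 CPM in library 2. With rows missing, the balance of activators and repressors cannot be read from these levels. TTG1 was listed at 0 in both libraries, but only its isoform 3 had a row. Of the 15 tested, 7 were called, 5 higher in library 1 and 2 in library 2, beside 54.5% of all models called (27.4% and 27.1% by direction).

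**Figure D4:**
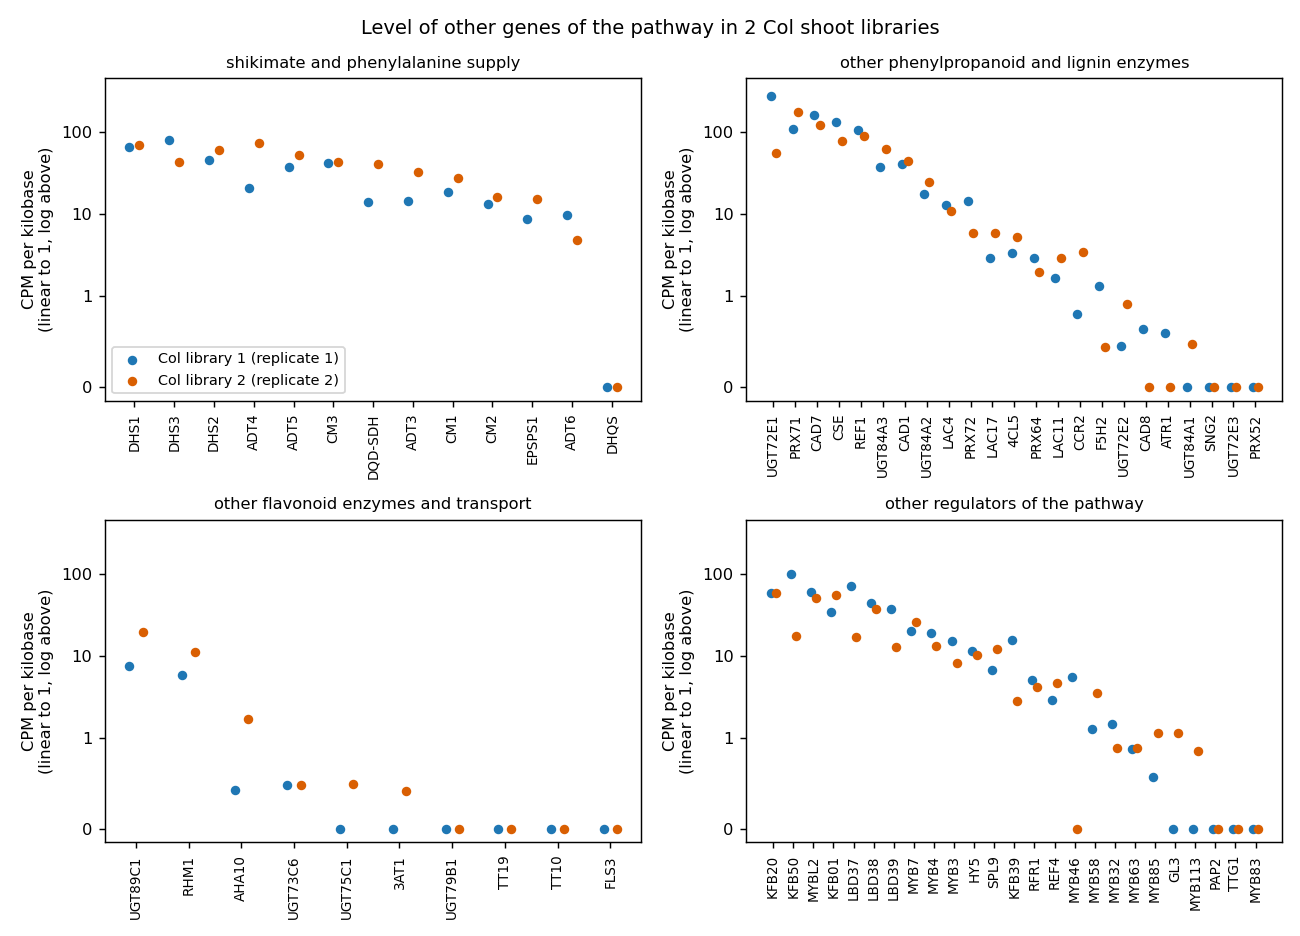
CPM per kilobase of the 71 listed genes of the wider pathway in the 2 Col libraries, in 4 lists and ordered by mean within each, on axes that are linear to 1 and logarithmic above. In the list of flavonoid enzymes and transport only RHM1 and UGT89C1 stand above 5 CPM per kilobase, whereas 12 of 13 genes of the shikimate and phenylalanine supply had a mean of at least 5 CPM.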

How the data were processed

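The values are raw read counts per gene model, deposited by the authors and named raw in the column headers, from TRIzol-extracted RNA and standard Illumina libraries, per the labels' protocols. The submitters' processing notes name the build TAIR10. For the aligner, counter, strand setting and filters, the sources used here give nothing. The number in brackets in each column name exceeds the column sum and has no stated meaning. The 6 count columns whose names match no sample title were not used, so the planned edgeR and DESeq2 contrasts between genotypes were not run.

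Libraries were scaled by TMM with edgeR 4.0.16 (R 4.3.3). The most abundant listed model stood for its locus. For models averaging 5 CPM or more, an exact binomial test (two-sided by doubling the smaller tail, scipy 1.17.1) compared the count split with the scaled library sizes, with Benjamini-Hochberg adjustment over all models and a threshold of 0.05. Intervals of ratios are 95% Clopper-Pearson intervals. Intervals and limits cover counting error only and leave out variation between libraries beyond it. The size of that variation relative to the mean, the biological coefficient of variation in edgeR, was 0.407 over the 10701 models tested. Differences between the libraries are thus less certain than the intervals and p-values say. Amplified reads with no molecular identifiers can also repeat a molecule. A listed 0 was given the one-sided 95% Poisson limit of 1 count, 4.74 counts. The test was checked on simulated counts with counting noise only, so that check does not cover variation between libraries beyond it.

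Spliced lengths, overlaps, coding identity (Biopython 1.88) and promoter windows came from the RefSeq annotation of TAIR10.1, matched by model for 17511 of 17921 models and by locus for most of the rest. Promoter coordinates and sequence are both of TAIR10.1, not of the submitters' TAIR10, and the count table holds no coordinates. The members and lists were chosen with earlier results of these data known. Members at 20 CPM or more are given with the values of each library and the others with their counts. Of the other lists, the 3 most abundant genes and any at 100 CPM are named. Further genes named there were chosen after their values were seen. The alternatives were other scalings, other filters on level, summed models, other lengths and leaving out a library.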

Additional observations from a re-analysis of the deposited data

How the results depend on the processing

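No paired analysis was possible because only the 2 Col columns could be matched to samples, and the contrasts between genotypes, with DESeq2 and a replicate block, were not run. The number of pathway genes at 5 CPM or more was 14 with RLE factors, no scaling, organelle models left out and summed models, and 13 with the bracketed number as library size. Leaving out 1 library gave 13 to 14. The same 8 genes were called under every scaling and filter run. UGT78D2 was called in addition without scaling, and PAL4, which is below 5 CPM, with a filter at 1 CPM or none. The number of all models called ranged from 4632 of 6994 tested at 20 CPM or more to 5961 of 13241 at 1 CPM or more. All 11 genes at 20 CPM or more kept their mean within 1 SD under RLE factors, no scaling, organelle models left out and either library alone. The last of these follows from an SD over 2 values. Without length correction the summed levels moved to 216 CPM for the general phenylpropanoid list and 537 CPM for the monolignol list, from 81.2 and 332 CPM per kilobase, which is a change of unit. Depth limits the regulators, F3′H, FLS1, DFR and PAL4, each below 5 CPM.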

Other observations

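Genes that were singled out after their values were seen showed further differences between the 2 Col libraries, given as values with no cause tested. The arogenate dehydratase genes, which make phenylalanine, differed among themselves. ADT4 had 39.3 CPM in library 1 and 141 CPM in library 2, ADT3 had 24.5 and 55.5 CPM, and ADT5 had 81.1 and 114 CPM, whereas ADT6 had 17.7 and 8.85 CPM. Each of the 4 passed the exact binomial test against counting noise, as did 54.5% of all models tested. ADT6 overlaps TIL1 on the opposite strand by 1756 bases.

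The Kelch F-box genes did not move together. KFB50 was 5.61 times higher in library 1 (95% exact interval 4.32 to 7.39) and KFB39 5.59 times (2.82 to 12.3), whereas KFB01 had 58.2 CPM in library 1 and 94.1 CPM in library 2, and KFB20 did not pass the test (adjusted p = 0.96 by the exact binomial test). KFB39 overlaps a neighbouring gene by 1445 bases and KFB50 a noncoding RNA gene by 1389 bases, each on the opposite strand. The nitrate-responsive repressor genes LBD37 and LBD39 were higher in library 1, LBD39 with 51.4 CPM there and 17.7 CPM in library 2, while LBD38 did not pass the test (adjusted p = 0.23). MYB46, a regulator of secondary walls, had 17 counts in library 1 and was listed at 0 in library 2, and it was below the level tested.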
